A study of Rattus norvegicus with 8 samples.

Results

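The oncofetal and imprinted growth genes are 10 rat genes that are active in fetal tissue, carry parental imprints or do both, namely H19, Igf2, Igf2r, Cdkn1c, Phlda2, Afp, Gpc3, Dlk1, Mest and Peg3. They were chosen by symbol on the array, and 9 of the 10 had a probe under that name, giving 11 probes of the 30367 that were not controls. Cdkn1c and Phlda2 had 2 probes each, and Peg3, a paternally expressed zinc finger gene, had none under that name and was not analysed here. RNA came from the livers of male Fisher 344 rats, 18 weeks old, in 2 groups of 4 animals. The furan group was dosed by gavage with 8 mg/kg furan a day, 5 days each week, over 90 days, and the control group is labelled only as control. Livers were taken 24 hours after the last treatment, and each animal was hybridised to its own 1-colour Agilent array. Furan is a volatile compound formed in heated foods that liver P450 enzymes oxidise to a reactive dialdehyde, and it causes liver tumours in rats.

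H19 and Igf2 are neighbours that share enhancers. A control region between them, bound by the insulator protein CTCF on the maternal copy, directs these enhancers to the non-coding RNA H19 there, and to the growth factor gene Igf2 on the methylated paternal copy. In the adjoining Kcnq1 domain the growth inhibitors Cdkn1c and Phlda2 are expressed from the maternal copy. Fetal liver makes H19, Igf2 and alpha-fetoprotein (Afp) in abundance and shuts them down around birth. In mice the repressors Zhx2 and Zbtb20 take part in the shutdown of Afp.

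Sequences are shown for the called genes, so that the reader can see what the H19 and Phlda2 probes read and what lies before the start of Afp, Phlda2 and Igf2. The H19 probe lies at chr1:202822987-202823046 on the minus strand of rat build rn4, the build of the array's probe coordinates. One of the Phlda2 probes lies at chr1:203878722-203878781, also on the minus strand. Exon and UTR annotation of that build was not used here. Both probes are 60 bases long.
H19 probe: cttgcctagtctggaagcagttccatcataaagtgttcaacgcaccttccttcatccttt
Phlda2 probe: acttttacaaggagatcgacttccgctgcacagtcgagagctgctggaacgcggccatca
The 250 bases before the annotated start were taken from RefSeq on GRCr8, where Afp lies at chr14:17875646-17875895, Phlda2 at chr1:208127242-208127491, and the 2 Igf2 entries at chr1:207250476-207250725 and chr1:207253981-207254230, all on the minus strand. Capitals mark matches, on either strand, to GTTAAT (part of an HNF1 motif), TATAAA (the TATA box), GGGCGG (the GC box) or CCAAT.
Afp: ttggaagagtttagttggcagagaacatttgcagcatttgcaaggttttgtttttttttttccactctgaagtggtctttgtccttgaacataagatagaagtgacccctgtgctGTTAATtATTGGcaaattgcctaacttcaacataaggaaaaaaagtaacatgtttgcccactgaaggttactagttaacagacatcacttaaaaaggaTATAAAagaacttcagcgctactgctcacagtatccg
Phlda2: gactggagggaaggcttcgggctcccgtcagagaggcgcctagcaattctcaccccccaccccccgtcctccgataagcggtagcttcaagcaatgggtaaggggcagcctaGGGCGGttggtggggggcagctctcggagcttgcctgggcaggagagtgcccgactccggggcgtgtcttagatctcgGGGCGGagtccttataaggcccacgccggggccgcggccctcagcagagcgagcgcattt
Igf2, entry at 207250476: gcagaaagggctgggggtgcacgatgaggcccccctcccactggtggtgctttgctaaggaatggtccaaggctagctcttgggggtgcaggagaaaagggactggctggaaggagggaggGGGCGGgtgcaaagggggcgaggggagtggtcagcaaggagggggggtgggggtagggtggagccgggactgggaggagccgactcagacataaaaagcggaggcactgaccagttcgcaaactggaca
Igf2, entry at 207253981: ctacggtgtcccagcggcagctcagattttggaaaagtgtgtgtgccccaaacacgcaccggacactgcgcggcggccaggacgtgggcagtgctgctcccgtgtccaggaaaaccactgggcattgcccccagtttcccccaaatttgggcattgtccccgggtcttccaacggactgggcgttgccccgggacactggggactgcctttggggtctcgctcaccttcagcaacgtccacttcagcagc
The Afp window held GTTAAT 135 bases before the start, a CCAAT match on the other strand that does not overlap it, and TATAAA 37 bases before the start. Of all 33469 windows of this length, 6.5% held GTTAAT, 34% held CCAAT and 12.9% held TATAAA. Phlda2 had 2 GGGCGG matches and 1 Igf2 entry had 1, and 30.5% of all windows held at least 1. CpG counts were 2 for Afp, 19 for Phlda2, and 7 and 15 for the Igf2 entries, with a median of 5 over all windows. These matches are letters in a window, and binding was not measured.

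Levels below are log2 processed signals with the array's 75th percentile set to 0, averaged over replicate spots. Differences between the groups were tested with limma over the 20268 probes that cleared background in 1 group or both, on each of that group's 4 arrays, and a probe was called at a Benjamini-Hochberg adjusted p below 0.05. Probes differ in brightness for reasons other than RNA abundance, so levels of different probes are not compared as abundances. Between 73.2% and 78.5% of spots were well above background on furan arrays, and between 70.9% and 74.8% on control arrays. The 75th percentile itself was 1256 to 1596 signal units on furan arrays and 827 to 1057 on control arrays, so scaling lowered furan levels relative to control levels. Arrays 1 and 2 of each group shared slide 1, and arrays 3 and 4 shared slide 2. In bulk liver RNA, fewer cells of a type and less RNA per cell cannot be told apart.

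Of the 11 member probes 10 were tested, for 8 genes. In furan livers 4 probes were higher, those of H19, Afp and Phlda2 (both probes), 1 was lower (Igf2), and 5 were not called. Over all tested probes 33.8% were called, 16.9% higher and 16.9% lower. The groups did not overlap for the same 5 member probes, against 36.4% of all probes. The median log2 change was 0.30 over the 10 member probes and -0.03 over all probes.

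**Figure D1:**
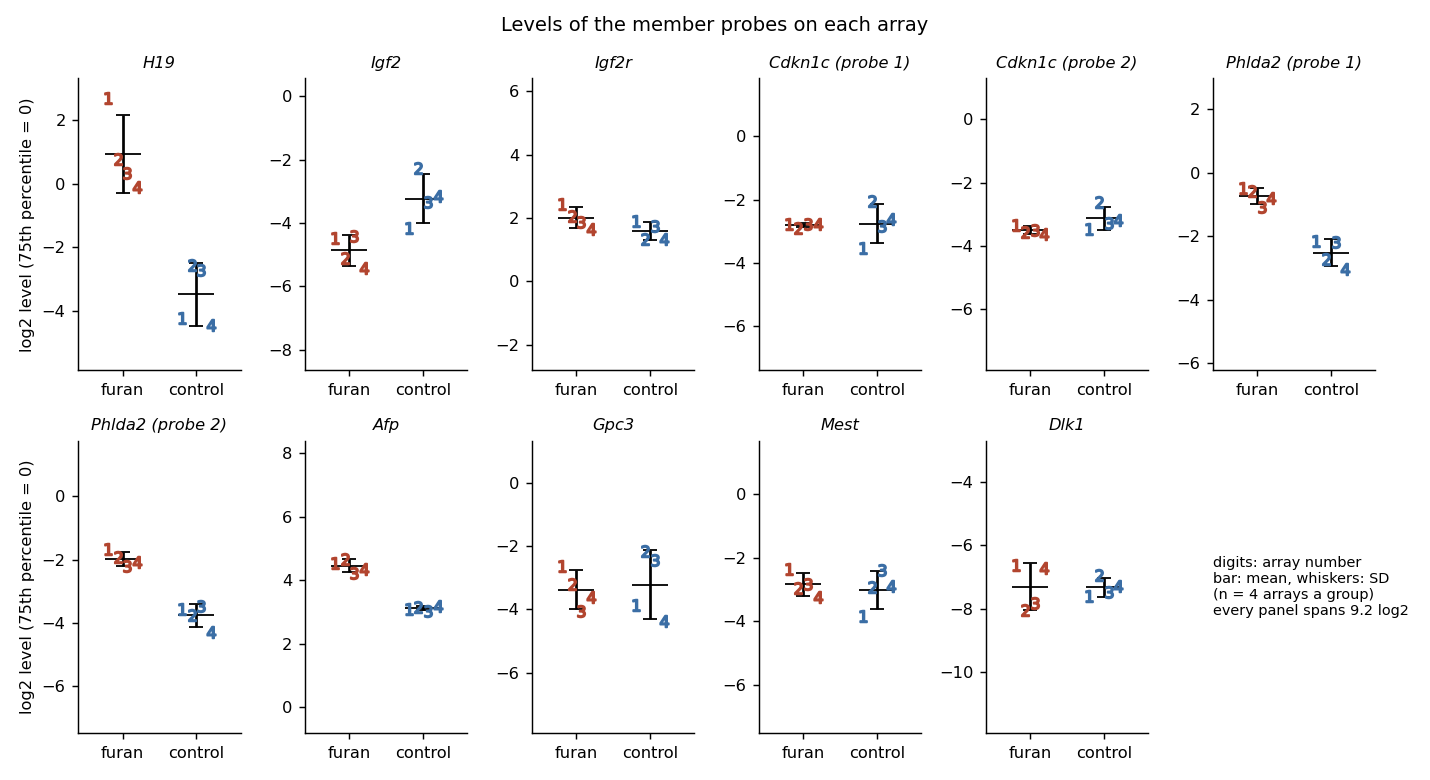
Log2 level (75th percentile of each array = 0) of each of the 11 member probes on the 4 furan arrays (left, red digits) and the 4 control arrays (right, blue digits). Horizontal bars are means and whiskers are SDs. The groups stand apart for H19, Igf2, both Phlda2 probes and Afp, and overlap in the other panels.

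H19, a long non-coding RNA and precursor of a miRNA, had the largest change among the members. Its levels were 2.69, 0.79, 0.33 and -0.11 in furan livers 1 to 4, against -4.22, -2.55, -2.73 and -4.45 in control livers 1 to 4. Every furan array was above every control array, with a gap of 2.45 between the lowest furan and the highest control value, and furan 1 stood above the other furan arrays. In unscaled signal units these were 9635, 2753, 1834 and 1168 on furan arrays and 44.4, 166, 159 and 45.2 on control arrays. Control 1 and control 4 were dim, so the size of the change rests partly on low signals. The log2 change was 4.42 ± 0.67 (SE), or 21.3-fold, with a 95% interval from 2.88 to 5.95 and a limma adjusted p of 0.00253. Of all tested probes 22 had a larger log2 change. The change was 5.13 on slide 1 and 3.70 on slide 2. On slide 1 alone, with 2 arrays a group, the limma adjusted p was 0.064.

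Igf2, which encodes the fetal growth factor IGF-II, moved the other way. Its levels were -4.48, -5.10, -4.40 and -5.42 in furan livers, against -4.15, -2.26, -3.35 and -3.15 in control livers. All furan arrays were below all control arrays, but the gap between the groups was only 0.25, and control 2 was the highest. The probe at chr1:202906641-202906700 was dim, with 29.3 to 68.7 signal units on furan arrays and 47.0 to 217 on control arrays, and the replicate spots of control 2 differed by 1.04. The log2 change was -1.63 ± 0.40 (SE; interval -2.53 to -0.72; limma adjusted p = 0.0154). Over all tested probes 152 had a lower log2 change. Without control 2 the change was -1.30, with an adjusted p of 0.0248. The call ended on slide 1 alone (-1.59, adjusted p = 0.218), on slide 2 alone (-1.66, 0.0533) and without scaling between arrays (-1.03, 0.078), where the median of all tested probes moved to 0.56.

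The difference between the H19 and Igf2 levels on an array does not depend on the array's scaling, and only its change between the groups can be read, since its size also holds the unknown brightness of the 2 probes. It was 7.18, 5.89, 4.74 and 5.32 log2 units in furan livers, against -0.07, -0.30, 0.62 and -1.29 in control livers. The lowest furan value was above the highest control value by several log2 units. The change, furan minus control, was 6.04 ± 0.65 (SE, n = 4 each). A 2-sided exact permutation test over the 70 splits of the 8 arrays gave p = 0.0286, the smallest this design allows. H19 alone separated the groups by a gap of 2.45, so this p does not show that Igf2 moved. The genes were also chosen with earlier results of these data known. The change was 6.72 on slide 1 and 5.37 on slide 2.

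**Figure D2:**
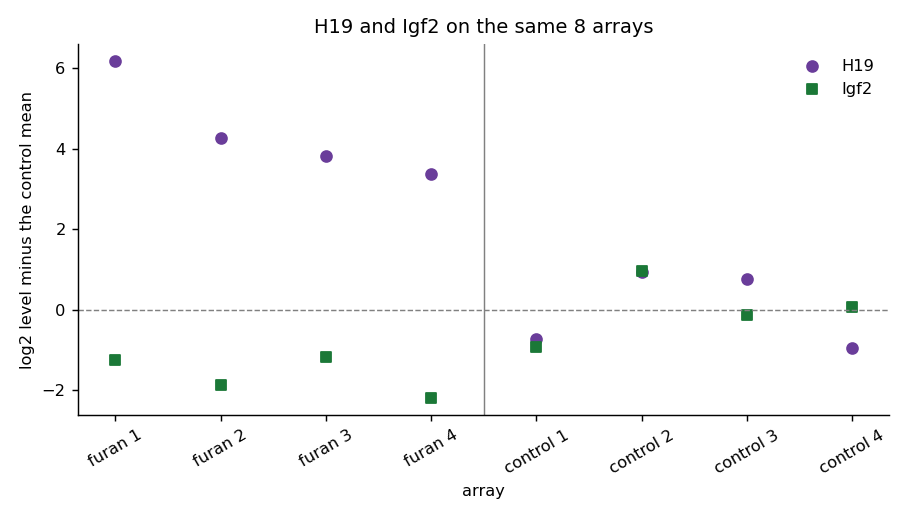
Log2 level of H19 (circles) and Igf2 (squares) on each array after that probe's control mean was subtracted, with furan arrays left of the line and control arrays right. H19 lies above the control mean and Igf2 below it on all 4 furan arrays.

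Igf2r encodes the receptor that takes IGF-II up for degradation. Its levels were 2.46, 2.05, 1.89 and 1.66 in furan livers and 1.92, 1.35, 1.74 and 1.34 in control livers. The groups overlapped, and the log2 change was 0.43 ± 0.20 (SE; interval -0.04 to 0.89; limma adjusted p = 0.137). Without scaling between arrays it was 1.02 and passed the test (adjusted p = 0.00584).

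Phlda2, a pleckstrin homology protein that restrains placental growth, rose on both of its probes. The brighter probe read -0.49, -0.58, -1.08 and -0.79 in furan livers, against -2.14, -2.71, -2.18 and -3.04 in control livers. The second probe, whose sequence is printed above, read -1.68, -1.93, -2.21 and -2.07 in furan livers, against -3.56, -3.74, -3.45 and -4.29 in control livers. On both probes all furan arrays were above all control arrays. The log2 changes were 1.78 ± 0.23 (SE; limma adjusted p = 0.00148) and 1.79 ± 0.20 (0.000903), so the 2 probes gave the same size of change, about 3.44-fold on the brighter one. On slide 1 alone the brighter probe's adjusted p was 0.0512, at a change of 1.89. With normexp background correction the second probe's change was 1.15 (adjusted p = 0.000337).

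Cdkn1c, whose product p57 inhibits cyclin-dependent kinases, neighbours Phlda2, and neither of its probes was called. The first read -2.76, -2.90, -2.78 and -2.76 in furan livers, against -3.53, -2.03, -2.85 and -2.61 in control livers. Furan values lay inside the control range, and the log2 change was -0.05 with a 95% interval from -0.68 to 0.58 (limma adjusted p = 0.912). The second probe read -3.34, -3.57, -3.49 and -3.61 in furan livers and -3.47, -2.60, -3.27 and -3.19 in control livers, also overlapping. Its change was -0.37 ± 0.19 (SE; adjusted p = 0.157), and it passed the test with normexp background correction (-0.41, 0.0162) and with quantile normalization (-0.46, 0.0342). Without scaling both probes had a positive change, 0.55 and 0.22, and neither was called.

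Afp, the main plasma protein of the fetal liver and a marker of liver tumours, had the smallest adjusted p of the members. Its levels were 4.55, 4.68, 4.23 and 4.37 in furan livers, against 3.08, 3.15, 3.04 and 3.18 in control livers. The groups were separated by 1.05, and the controls lay within a narrow band. The log2 change was 1.34 ± 0.12 (SE), or 2.54-fold, with a limma adjusted p of 0.000413. The change was 1.50 on slide 1 and 1.19 on slide 2. The probe, at chr14:19092583-19092642, was bright in both groups, with 25936 to 41031 signal units on furan arrays and 7017 to 8919 on control arrays.

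Gpc3 encodes glypican-3, a heparan sulphate proteoglycan of fetal liver and of hepatocellular carcinoma. Its levels were -2.62, -3.21, -4.06 and -3.59 in furan livers and -3.87, -2.17, -2.43 and -4.38 in control livers. The furan values lay inside the wide control range, and the log2 change was -0.16 with an interval from -1.37 to 1.05 (limma adjusted p = 0.846), so changes of either sign lay within its error. Mest, an imprinted hydrolase-like gene, read -2.34, -2.95, -2.84 and -3.23 in furan livers and -3.83, -2.92, -2.40 and -2.89 in control livers. These also overlapped, with a change of 0.17 (interval -0.54 to 0.87; adjusted p = 0.711) and opposite signs on the slides, 0.73 on slide 1 and -0.39 on slide 2. Dlk1, a Notch-ligand-like protein of fetal hepatoblasts, was not tested, because its probe was well above background on 3 of 4 furan arrays and 1 of 4 control arrays. Its signal was 6.07 to 15.3 units on furan arrays and 4.42 to 10.05 on control arrays.

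**Figure D3:**
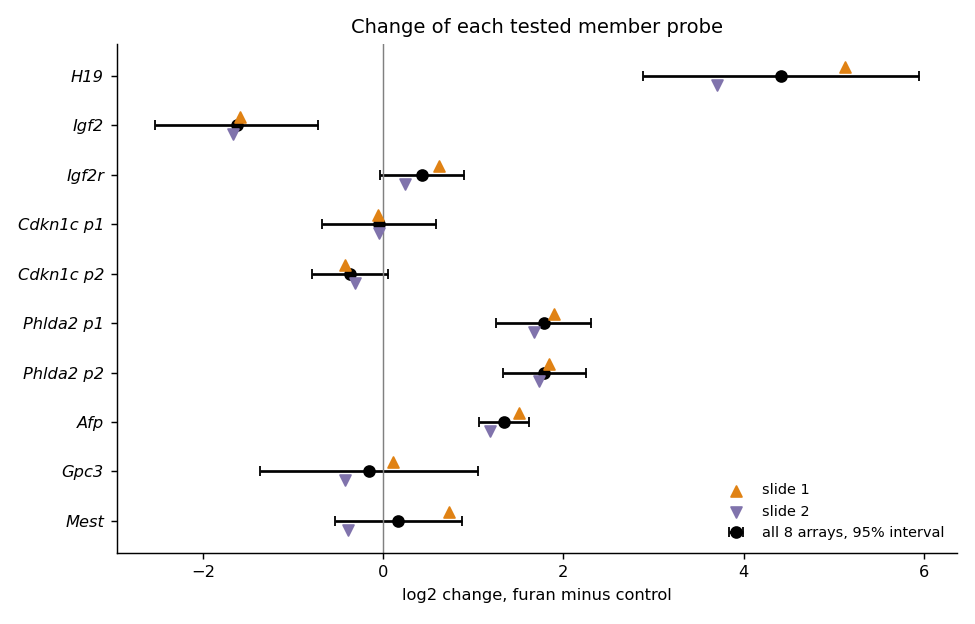
Log2 change, furan minus control, of the 10 tested member probes. Black points with 95% intervals are from all 8 arrays, and triangles are the changes within slide 1 (upward) and slide 2 (downward); p1 and p2 are the 2 probes of a gene. H19, Afp and Phlda2 lie right of 0 and Igf2 left of 0 on both slides, while Gpc3 and Mest change sign between slides.

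The H19 and Igf2 probes are 83654 bases apart. Within 1500 kb on either side of the H19 probe lay 95 probes, of which 79 were tested. Among these 10 were higher and 17 lower in furan livers, 34.2% called against 33.8% over all tested probes, with a median log2 change of -0.06. The share of called probes around H19 was thus close to that of the whole array. Ins2, the insulin gene beside Igf2, fell by 1.14 (limma adjusted p = 0.00101). Its probe was dim, as that of Igf2 was. It read -4.84, -4.96, -4.70 and -4.49 in furan livers, against -3.40, -3.62, -3.72 and -3.69 in control livers. Ascl2, a placental transcription factor, was higher by 0.82 (0.0138), a call that ended without furan 1 and control 2 together (0.0516). Tnni2, a fast skeletal muscle troponin, was lower with a change of -0.74 (0.0463), and that call ended in 6 of the 8 fits that left out 1 array. Those 6 left out furan 1, furan 2, furan 3, control 1, control 2 or control 4, with changes from -0.79 to -0.55. Lists were read by the brightest tested probe of each gene. Over all 17593 gene names read that way 34% were called, 17.2% higher and 16.8% lower. Of the 18 listed domain neighbours 16 were tested, 1 was higher, 3 were lower and 12 were not called. The 4 calls became 2 without furan 2, control 1, control 2 or control 4. With normexp 1 was higher and 7 lower, and without scaling 7 were higher and 1 lower. Kcnq1, the potassium channel gene after which the second domain is named, had a change of 0.50 and was not called (adjusted p = 0.535).

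**Figure D4:**
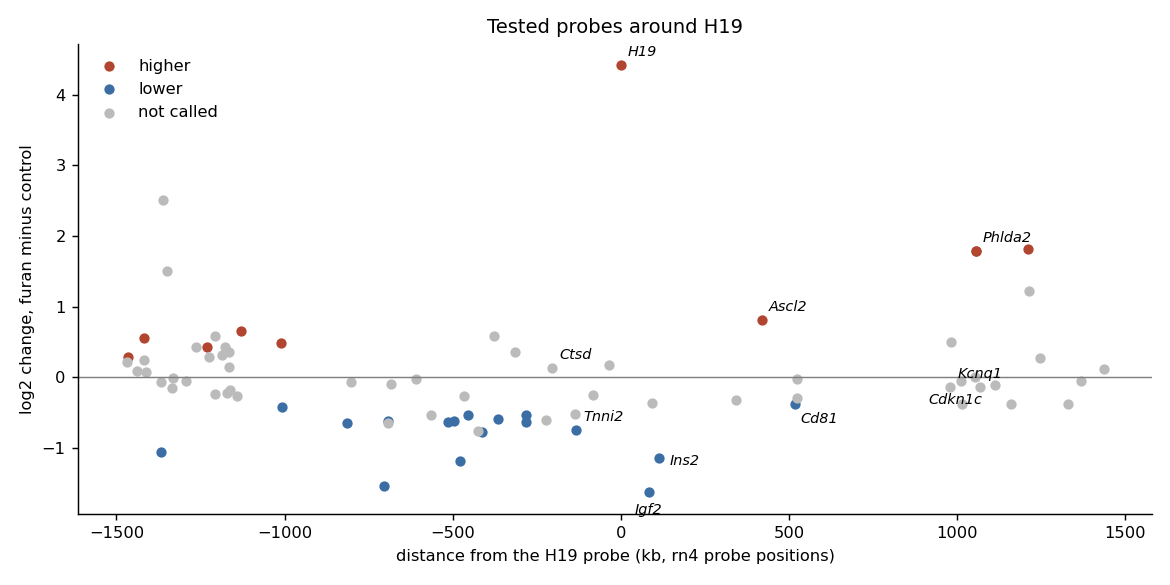
Log2 change, furan minus control, of the 79 tested probes within 1500 kb of the H19 probe, by distance in kb. Red points were called higher, blue lower and grey points not called. H19 is the highest point and Igf2 the lowest, with Ins2 beside it.

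By the likeness measure used here, the mean absolute difference between 2 probes over the 8 arrays after subtracting each probe's control mean, the nearest named genes to H19 were Ica1, Ildr1, Akr1b8, L1td1 and Ddit4l, at 0.64 to 0.70 among 14821 probes. Ica1, an islet cell autoantigen gene and the nearest, read 0.23, 0.59, -0.06 and 0.15 in furan livers, against -4.42, -2.83, -3.70 and -3.54 in control livers. Its furan arrays were all above its control arrays, and furan 2 was its highest, whereas H19 was highest on furan 1. The nearest to Igf2 were Cyp4a8, Tenm2, Coch, Trim2 and Nrbp2, at 0.26 to 0.33 among 14292 probes. Cyp4a8, a fatty acid hydroxylase and the nearest, read -4.91, -4.91, -4.05 and -5.06 in furan livers, against -3.85, -2.57, -2.72 and -3.02 in control livers. Its furan arrays were all below its control arrays, with control 2 the highest. Because these genes were picked by likeness on the same arrays, the shared separation of the groups is no separate result.

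Other imprinted genes mostly did not pass the test, and of all gene names 34% did. Of 18 tested among 31 listed, 1 was higher, 2 were lower and 15 were not called, with a median change of -0.15. The 3 calls became 5 without furan 3 and 6 without furan 4. With normexp 1 was higher and 5 lower, and without scaling between arrays 6 were higher and 1 lower. Peg12 (-1.17, limma adjusted p = 0.00257) and Mkrn3 (-0.72, 0.00377), of the Prader-Willi domain, fell, though without scaling Mkrn3 had a change of -0.13 and was not called (0.355). Dio3, a thyroid hormone deiodinase, rose by 0.76 (0.0195), a call that ended without furan 2 (0.0581) or control 3 (0.0521). Of 12 tested oncofetal genes outside the members, 3 were higher and 3 lower, with a median of -0.13. Cd24, a surface glycoprotein of progenitor cells, rose by 2.97 (0.0197), and Sall4, a fetal liver transcription factor, fell by 1.58 (0.00436). The Cd24 call ended without furan 2 (0.0601), control 3 (0.0535) or control 4 (0.0519). The pancreatic trypsin inhibitor Spink3 gave opposite results on its probes, -1.20 on the brighter (0.00968) and 1.03 on the other (0.0161). Without scaling the brighter probe had a change of -0.61 (0.0559).

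Of all gene names 17.2% were called higher and 16.8% lower. Among 23 tested regulators of Afp, H19 and imprints, 3 were higher, 7 lower and 13 not called, with a median of -0.43. Without scaling between arrays 7 were higher and none lower. Dppa3, a maternal factor that protects imprints in mouse embryos, rose by 2.65 (limma adjusted p = 0.00047). Zfp57, which maintains imprints in mice, rose by 0.99 (0.0072), and was not called with normexp (0.19, 0.145). Uhrf1, which brings DNA methyltransferase to replicated DNA, rose by 1.33 (0.021), but with normexp its change was -0.36 (0.0237), and its call ended without furan 2 (0.0537) or control 2 (0.0515). The brighter probe of Zhx2 fell by 0.64 (0.0166), and its second probe had a change of 0.21 and was not called (0.428). The call of the brighter probe ended with median scaling (0.0519). Zbtb20 had a change of -0.47 and was not called (0.124), and Plagl1, a zinc finger activator of imprinted genes in mice, was not tested. Without scaling the changes of Zhx2 and Zbtb20 were -0.05 and 0.13, and neither was called.

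In the IGF axis, of 12 tested genes 5 fell and 7 did not pass the test, and no gene rose, with a median of -0.48. The share over all gene names was 34% called and 16.8% lower. Igfals, the acid-labile subunit that holds IGFs in plasma, fell by 1.18 (limma adjusted p = 0.00481), Igf1 by 1.11 (0.0041) and the binding protein gene Igfbp4 by 0.87 (0.00257). The signalling receptor gene Igf1r had a change of -0.06 and was not called (0.897). Without furan 2 or without control 2, 3 of the 12 were called lower. Without a filter on dim probes 3 were lower, and without scaling 1 was higher and 2 lower, with Igfbp4 at -0.28 and not called (0.105).

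**Figure D5:**
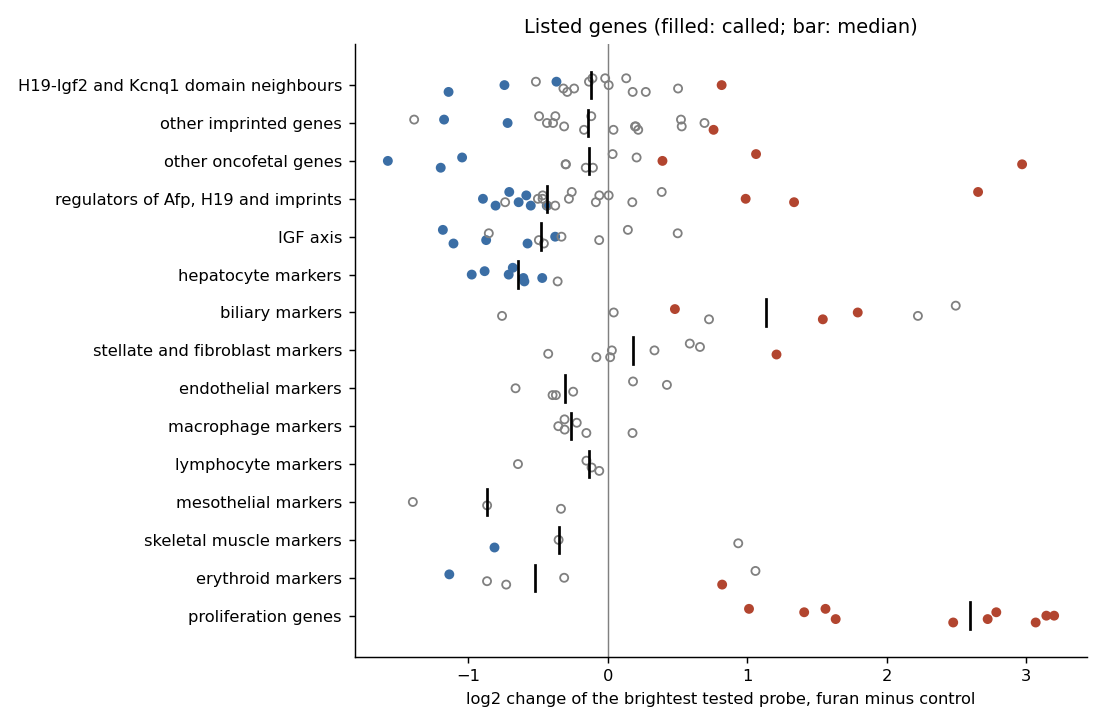
Log2 change, furan minus control, of the brightest tested probe of each listed gene, with lists running down the page. Filled points were called (red higher, blue lower), open points were not, and black bars are medians. All 10 proliferation genes lie right of 0, and 7 of 8 hepatocyte markers were called lower.

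Markers of division and of some cell types also differed between the groups. Whether they varied together with the members was not tested. The list counts below stand beside 34% called over all gene names, 17.2% higher and 16.8% lower. Of 10 proliferation genes 10 rose, with a median of 2.60 and with Aurkb (3.20), Ccna2 (3.14) and Cdk1 (3.07) the highest. With normexp 8 of the 10 rose, Aurkb had a change of 0.27 and was not called (limma adjusted p = 0.107), Ccna2 rose by 1.28 and Cdk1 by 2.11. On slide 2 alone Aurkb was also not called (0.0749). Their median level was -3.12 to -2.16 on furan arrays and -5.30 to -4.65 on control arrays, without overlap. Of 8 hepatocyte markers 7 fell, with a median of -0.64, among them Hnf4a (-0.98), Apob (-0.88) and Ttr (-0.71). In the fits that left out 1 array, 5 to 6 of the 8 hepatocyte markers were called. With quantile normalization 2 of the 8 fell, and without scaling none was called. Hepatocyte markers were well above background on every array.

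Of 8 tested biliary markers 3 rose and none fell, with a median of 1.13. Over all gene names 34% were called, 17.2% higher. Epcam rose by 1.79 (limma adjusted p = 0.00748), Cldn7 by 1.54 (0.0323) and Sox9 by 0.48 (0.0219). The Cldn7 call ended without furan 1, furan 2, control 1, control 3 or control 4, and the Sox9 call without control 1 or control 2. Sox9 was also not called with normexp (0.17, 0.213), median scaling (0.0673) or without furan 1 and control 2 together (0.0759), nor was Sox9 (0.0527) or Cldn7 (0.0651) without a filter on dim probes. Of the 8 markers 1 was higher without control 1 or without that filter, and 5 were higher without scaling. The list's median level was -0.24, -1.72, -3.85 and -3.98 in furan livers, against -3.76, -2.16, -3.42 and -3.71 in control livers. Furan 1 was highest in its group, as for H19, and control 2 in its group, as for both H19 and Igf2, so the groups overlapped. From furan 1 to furan 4 the list's median fell at each step, as the H19 level did. The log2 of the list's summed signal ran from 0.54 to 3.14 on furan arrays and from -0.44 to 2.44 on control arrays. The part of these cells in the H19 and Igf2 changes was not tested. With furan 1 and control 2 both left out, 5 member probes were still called and the H19 minus Igf2 change was 5.56. The arrays that remained still differed in the list's median, so this fit does not test the part of these cells.

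Stellate and fibroblast markers had 1 of 8 higher, Rgs5 at 1.21, and none lower, with summed levels of 2.38 to 3.97 on furan arrays and 1.88 to 3.24 on control arrays. This list's median level was -0.50, -0.83, -1.80 and -2.30 in furan livers, against -3.06, -0.90, -1.52 and -1.36 in control livers. It too fell at each step from furan 1 to furan 4 and was highest on control 2 in its group, as for the biliary list. The part of stellate cells and fibroblasts in the H19 and Igf2 changes was not tested either. Without scaling 3 of these 8 were higher, and without furan 1 and control 2 together 1 was higher and 1 lower. None of 6 endothelial, 6 macrophage, 4 lymphocyte and 3 mesothelial markers was called in limma. Those with the smallest p were the endothelial Cdh5 (-0.40, adjusted p = 0.0819), the macrophage Emr1 (-0.31, 0.152) and the mesothelial Lrrn4 (-1.40, 0.123). Without control 1, 3 endothelial markers were called lower. With normexp 1 endothelial, 1 lymphocyte and 2 mesothelial markers were lower, and without scaling 1 macrophage marker was higher. Of 6 erythroid genes, the transferrin receptor gene Tfrc rose by 0.82 (0.00284), the anion exchanger gene Slc4a1 fell by 1.14 (0.0193) and 4 were not called. The Slc4a1 call ended without furan 2 (0.0573), without furan 1 and control 2 together (0.0651) and without scaling (-0.54, 0.185). Of 3 tested skeletal muscle genes, the creatine kinase gene Ckm fell by 0.82 (0.0131). Its call ended without furan 1 and control 2 together (0.058) and without scaling (-0.22, 0.301).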

How the data were processed

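Per the submitters' processing notes, arrays were read with Agilent Feature Extraction 10.7. The deposited intensity values are that software's background-corrected processed signals, 1 colour (Cy3). The series table deposited by the authors holds the same intensity values, scaled so that each array's 75th percentile is about 1000, and gave an alternative. Spots flagged as outliers were dropped, replicate spots averaged, and each array's 75th percentile, over its 58717 spots that are not controls, was subtracted from the log2 signals. A probe counted as well above background on an array if at least 0.5 of its spots were. limma 3.58.1 (R 4.3.3) compared 4 furan with 4 control arrays over 20268 probes with Benjamini-Hochberg adjustment, and the test was checked on simulated data. The number of arrays limits the precision. H19 minus Igf2 was tested by exact permutation.

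Members and lists were chosen with earlier results of these data known. All member probes were named. From each list (domain neighbours, other imprinted, other oncofetal, regulators, IGF axis, hepatocyte, biliary, stellate, endothelial, macrophage, lymphocyte, mesothelial, skeletal muscle, erythroid, proliferation), by the brightest probe per gene, the 3 called genes with the largest change were named, or else the gene with the smallest p. For the lymphocyte list that gene is not reported here. Zhx2, Zbtb20, Plagl1, Ins2, Igf1 and Igf1r were named whatever their values, and 5 genes most like H19 and Igf2. Kcnq1 was named after its value was seen. Alternatives covered background correction, scaling, filters, slide, replicate number and left-out arrays.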

Additional observations from a re-analysis of the deposited data

Results flagged for a closer look

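In 1 of the 24 groups of 4 arrays examined, the lowest or highest sample stood far from the others, and chance alone flags about 1 in 20 such groups. The first Cdkn1c probe read -2.90 on furan 2, against -2.78 to -2.76 on the other furan arrays. The gap took up 0.852 of the group's range. The furan values of this probe had an SD of 0.0677 log2 units, against 0.618 in control livers.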

How the results depend on the processing

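Leaving out 1 array at a time gave 4701 to 6773 called probes over the whole array, 5 called member probes in every fit, and an H19 minus Igf2 change of 5.58 to 6.39. With normexp background correction the H19 minus Igf2 change was smaller, at 4.84 (exact permutation p = 0.0286). That change was 6.04 (exact permutation p = 0.0556) with slide as a block, 6.04 (p = 0.125) with the replicate number as a block, 6.72 (p = 0.333) on slide 1 alone, 5.37 (p = 0.333) on slide 2 alone and 5.56 (p = 0.1) without furan 1 and control 2. In each of these designs the p is the smallest the number of splits allows. The labels give replicate numbers and do not say whether these pair the samples. Deviations of same-numbered arrays correlated at -0.30, 0.11, 0.28 and 0.04, which cannot decide it. With the replicate number as a block 5110 probes and 5 member probes were called. Among the named genes that block ended the calls of Sox9 (adjusted p = 0.0736), Ckm (0.056) and Zhx2 (0.0522). Slide 1 alone called 529 probes and 2 member probes, and slide 2 alone 1617 probes, with fewer samples in each. Without scaling, an alternative chosen after seeing the data, 10989 probes were called, 10405 higher and 584 lower, against 3429 higher and 3423 lower in the scaled data. The median change of all probes was then 0.56, and 5 member probes were higher, with Igf2r in place of Igf2. Normexp background correction called 10172 probes, 3070 higher and 7102 lower, with a median of -0.19. The change of Uhrf1 turned to -0.36 with normexp and that of Ttr to 0.0097 with quantile normalization; the cause was not tested. The 4 genes with called probes kept their direction and call in the normexp, quantile, median-scaled, series-table, unfiltered, filtered-on-all-arrays, flagged-spots-kept, trended-prior and slide-block fits. No other pair of H19 and Igf2 probes existed, so that alternative gave no value. Signals near background limit Dlk1, Igf2 and Ins2. H19 was also dim on control 1 (44.4 units) and control 4 (45.2), which limits the size of its fold change. On control 4 Gpc3 read 47.3 units and the second Phlda2 probe 50.3.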

Other observations

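Afp lies in a cluster of albumin family genes on chromosome 14. In the scaled data these genes, chosen after their values were seen, did not move with it. The 3 probes listed as LOC360919, which RefSeq names Albfm1, fell by 1.36, 1.34 and 1.16 on the log2 scale (limma adjusted p = 0.00113, 0.00158 and 0.00405). The first of them read 2.42, 2.25, 2.80 and 2.93 in furan livers, against 4.06, 3.83, 3.93 and 4.02 in control livers, with no overlap. Afm, the vitamin E binding protein afamin, fell by 0.37 (0.0384), and Gc, the vitamin D binding protein, fell by 0.69 (0.0054). Alb had a change of -0.36 and was not called (0.134). Afp, with its change of 1.34, was the 1 gene that rose among the 5 gene names examined in the scaled data. Its neighbours were not examined one by one without scaling between arrays. The median change of all tested probes was then 0.56, against -0.03 with scaling, so small falls may depend on the scaling.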
